A study of Mus musculus with 80 samples.

Results

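The nuclear genes of the mitochondrial respiratory chain were taken from an RNA-seq table of mouse embryonic stem cells (ESCs) that were moved from serum medium to 2i. They were chosen by name alone, as every row that starts with Nduf, Uqcr, Sdha to Sdhd, Cox4 to Cox8 or Atp5, leaving out the 1 row marked as a pseudogene copy and the 2 Sdhaf assembly factors. This gave 90 of 25965 rows. They comprised 38 of complex I, 4 of complex II, 8 of complex III, 18 of complex IV, 17 of complex V, 4 complex I assembly factors (Ndufaf1 to Ndufaf4) and Cox4nb, now known as Emc8, which is not a subunit of the chain. The start of Cox4nb (chr8:120668112, minus strand) lies beside that of Cox4i1 (chr8:120668290, plus strand). Of these, 86 passed the filter on low values (a log2 value of at least 0 in at least 3 of the 12 libraries), and Cox4i2, Cox7b2, Cox8b and Cox8c did not.

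The RNA-seq used the wild-type ESC line E14, a single line, in 12 libraries. There were 3 from cells in serum with LIF, the cytokine that keeps ESCs undifferentiated, and 3 each from cells after 6, 24 and 72 h in 2i. The serum medium was DMEM with fetal calf serum. 2i is a serum-free medium, here N2B27 with LIF, PD0325901, which inhibits MEK, and CHIR99021, which inhibits GSK3. The basal medium was thus exchanged, serum withdrawn and both inhibitors added in the same step, and their parts cannot be told apart. H3K9me2 ChIP-seq, which maps the dimethylated form of lysine 9 on histone H3, was done in serum, after 24 h in 2i and in cells kept long-term in 2i (LT2i), with 2 bound libraries and 1 input each. All 9 ESC markers listed for the cell type check, among them Pou5f1, Sox2 and Nanog, lay above a log2 value of 0 in all 12 RNA-seq libraries, whereas 2 of 7 fibroblast markers (Col1a1 and Thy1) did.

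The respiratory chain sits in the inner mitochondrial membrane. Complexes I and II take electrons from NADH and succinate, complex III passes them to cytochrome c, complex IV hands them to oxygen, and complex V, the ATP synthase, uses the proton gradient that complexes I, III and IV build to make ATP. Most subunits are encoded in the nucleus and imported, a few central ones are encoded in mitochondrial DNA, and several complex IV subunits exist as a ubiquitous form and as forms typical of heart, skeletal muscle, testis or lung. ESCs draw much of their ATP from glycolysis, and respiration is commonly reported to be more active in naive than in primed pluripotent cells.

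The stretches upstream of the start sites of 5 complex IV subunits are shown here because they form pairs of one protein position with unlike responses to 2i. Cox6b1 and Cox7a2 are the ubiquitous forms and Cox6b2 and Cox7a1 the forms typical of testis and of heart and skeletal muscle, and Cox6a1 holds both kinds of motif that were marked. Each is the 250 bases before the start site in RefSeq (GRCm38.p6), read 5′ to 3′ on the gene's strand. Capitals mark matches, on either strand, to GCATGCGC, the core of the site of the factor NRF1, or to CCGGAAG, a site of ETS factors such as GABP. In Cox6a1, matches to the NRF1 core on both strands overlap and make up the first capital run.
Cox6a1, chr5:115348959-115349208, minus strand: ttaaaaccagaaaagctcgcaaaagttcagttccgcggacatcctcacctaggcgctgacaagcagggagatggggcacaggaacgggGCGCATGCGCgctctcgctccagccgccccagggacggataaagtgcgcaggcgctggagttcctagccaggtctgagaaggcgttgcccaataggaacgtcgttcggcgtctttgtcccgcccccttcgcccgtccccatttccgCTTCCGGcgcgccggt
Cox6b1, chr7:30626115-30626364, minus strand: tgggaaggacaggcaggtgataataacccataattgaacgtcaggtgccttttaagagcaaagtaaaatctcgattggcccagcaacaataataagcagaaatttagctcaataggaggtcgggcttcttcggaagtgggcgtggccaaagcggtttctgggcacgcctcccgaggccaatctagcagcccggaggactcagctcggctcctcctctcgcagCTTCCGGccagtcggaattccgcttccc
Cox6b2, chr7:4753095-4753344, minus strand: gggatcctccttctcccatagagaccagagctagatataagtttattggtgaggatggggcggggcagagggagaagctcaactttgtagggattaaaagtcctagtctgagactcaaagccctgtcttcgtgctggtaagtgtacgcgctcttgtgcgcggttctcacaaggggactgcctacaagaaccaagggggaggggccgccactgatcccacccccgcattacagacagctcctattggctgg
Cox7a2, chr9:79759854-79760103, minus strand: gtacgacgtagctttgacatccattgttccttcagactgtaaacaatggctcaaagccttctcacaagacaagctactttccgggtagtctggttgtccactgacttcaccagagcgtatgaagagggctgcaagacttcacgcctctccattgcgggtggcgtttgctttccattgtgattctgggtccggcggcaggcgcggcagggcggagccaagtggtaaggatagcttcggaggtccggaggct
Cox7a1, chr7:30183921-30184170, plus strand: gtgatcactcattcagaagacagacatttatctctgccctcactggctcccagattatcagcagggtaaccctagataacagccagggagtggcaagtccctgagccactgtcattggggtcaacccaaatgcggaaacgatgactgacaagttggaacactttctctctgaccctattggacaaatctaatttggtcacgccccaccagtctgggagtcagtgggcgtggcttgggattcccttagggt

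RefSeq promoters were matched for 74 of the 90 genes. Those without a matched entry included Ndufa2, Ndufa4l2, Ndufb9, Ndufs1, Sdhc, Uqcrb, Uqcrc2, Uqcrq, Cox4i1, Cox4i2, Cox6a2, Cox6c, Cox8c, Atp5a1 and Cox4nb. Over 300 bases (250 before and 50 after the start), the NRF1 core stood in 11 of the 74 (14.9%) against 2.8% of 27025 promoters of all genes. The ETS letters stood in 16 (21.6%, all promoters 9.12%) and at least one of these motifs in 22 (29.7%, all promoters 11.4%). The letters AAGATGGCG, a site of YY1, stood in 7 (9.46%, all promoters 1.49%), and TCAAGGTCA, a site of estrogen-related receptors, in Sdhd and Atp5g3 only (2.7%, all promoters 0.407%). The median number of CpG dinucleotides was 19 in the 74 promoters and 7 in all promoters, and 8.5 in the 4 matched tissue-restricted isoforms (Cox6b2, Cox7a1, Cox7b2 and Cox8b), none of which held any of the motifs. These are matches of letters in a fixed window and are no measure of binding. The NRF1, ETS and YY1 letters each hold a CpG, and the part of CpG content in these shares was not tested. For Atp5g2, which held the NRF1 core, the RefSeq start used lay 3298 bp from the start in the RNA-seq table, and for Atp5d 3643 bp.

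The levels are deposited log2 values, which the authors adjusted for library depth and gene length and aligned so that each library has the same 75th percentile (2.51). Read totals of the RNA-seq libraries are unknown, so counting error could not be given, and a change is relative to the other transcripts of the same library. A gene was called when its limma p-value, adjusted by the Benjamini-Hochberg method over all 12306 genes tested, was under 0.05. In bulk RNA, fewer expressing cells and less RNA per cell cannot be told apart.

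After 6 h the chain was almost level with serum. Of the 86 tested genes, 1 was higher and 1 lower, where 9.13% of all genes tested were called higher and 6.48% lower (15.6% in either direction), and the median change was -0.03 on the log2 scale (0.01 over all genes). Cox6b2, a form of the complex IV subunit 6b typical of testis, was the gene called higher (3.09, 3.39 and 3.55 in serum, 4.16, 4.00 and 4.01 at 6 h). Its 6 h values all lay above serum, with a log2 change of 0.72 ± 0.19 (SE) and a limma adjusted p of 0.0278. This call was lost without any 1 of the 6 h replicates or without serum replicate 1 or 2 (adjusted p 0.0705 to 0.124). Atp5sl, now known as Dmac2, an assembly factor of complex I despite its name, was the gene called lower, with 3.17, 3.16 and 3.25 in serum and 2.74, 2.68 and 2.69 at 6 h. Its groups did not overlap, and it was still at 2.62, 2.78 and 2.50 at 24 h and 2.64, 2.64 and 2.61 at 72 h (log2 change -0.56 ± 0.09 at both times, limma adjusted p = 0.000343 and 0.000356).

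At 24 h nearly the whole chain was higher. Of the 86 genes, 77 were called higher and 1 (Atp5sl) lower, against 34.2% higher and 29.1% lower (63.3% in either direction) over all genes tested, and the median change was 1.08 (0.11 over all genes). Centring each library on the median of its cytosolic ribosomal protein genes, which moved the median of all genes to -0.95, turned these counts to 14 higher and 12 lower (65.6% of all genes called in either direction) and the median of the members to 0.02. Ndufa4l2 and Cox6a2, which passed the filter only through libraries in 2i, are among the 77, but no support is taken from their p-values against serum, and without them 75 of 84 genes were called higher at 24 h and 29 at 72 h (medians 1.07 and 0.53). The counts over all 86 genes, here and below, include these 2, and no support for a difference from serum is taken from them. In 72 genes all 24 h libraries lay above all serum libraries, which held for 34.4% of all genes. Among the 77 genes of complexes I to V without the tissue-restricted isoforms, which leaves these 2 out, it held in 67. At 72 h the rise was smaller. There 31 genes were called higher and 1 lower, against 25.7% and 26.5% (52.2% in either direction) over all genes, with a median change of 0.54 (-0.01 over all genes). All 72 h libraries lay above all serum libraries in 47 of the 86 genes (31.3% of all genes), and in 43 of the same 77.

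The libraries of one time point were far apart. Over the 77 genes of complexes I to V without the tissue-restricted isoforms (Atp5s and Atp5sl included), the median log2 level was 5.20, 5.23 and 4.94 in serum, 5.22, 5.11 and 4.93 at 6 h, 6.57, 6.32 and 5.53 at 24 h and 5.61, 6.14 and 5.26 at 72 h. All 24 h and 72 h libraries thus lay above all serum libraries, but 24 h replicate 3 lay below 72 h replicates 1 and 2. The number of genes called at 24 h ranged from 59 without 24 h replicate 1 (55.2% of all genes) to 83 without 24 h replicate 3 (71.9%). At 72 h it ranged from 19 without 72 h replicate 2 (45.2% of all genes) to 43 without 72 h replicate 3 (52.6%), and it was 21 without serum replicate 3 (44.7%). Taken as a set, the 9 ESC markers were also lowest in replicate 3 among the 24 h libraries. This held for the sum on the linear scale (3850, 3200 and 1860) and for the mean of log2 values (6.94, 7.01 and 6.72). Gene by gene they differed. Pou5f1, Sox2, Nanog, Zfp42 and Dppa5a were lowest in replicate 3, and Klf4, Esrrb, Tbx3 and Utf1 in replicate 1. The part of these markers in the results was not tested.

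**Figure D1:**
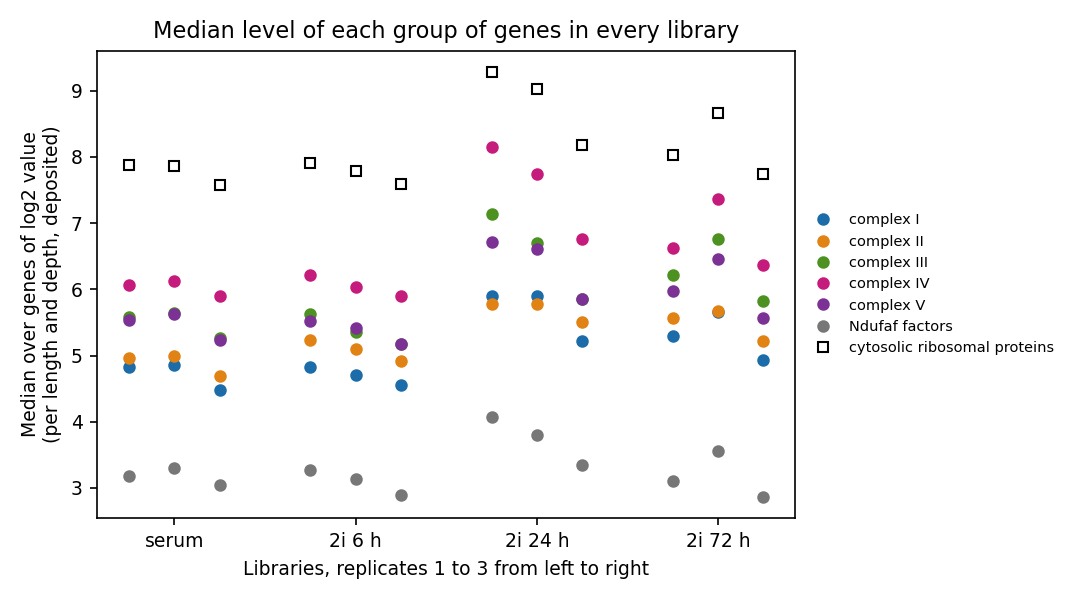
Median log2 level (deposited values, per gene length and library depth) of the genes of each complex, of the Ndufaf factors and of the cytosolic ribosomal protein genes in each of the 12 RNA-seq libraries, 3 per condition with replicates 1 to 3 from left to right. The 5 complexes were at similar levels in serum and at 6 h and higher at 24 h, where replicate 3 lay lowest, and the ribosomal protein median moved beside them.

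Complex I, the NADH dehydrogenase, had 36 of 37 genes called higher at 24 h (median change 1.06) and 14 at 72 h (0.58), against 34.2% and 25.7% of all genes, Ndufa4l2 left out because it passed the filter only through libraries in 2i. Ndufb4, an accessory subunit of its membrane arm, was at 4.06, 4.23 and 3.82 in serum, 6.57, 6.17 and 5.17 at 24 h and 5.57, 6.36 and 5.09 at 72 h. All libraries from 24 h on lay above serum, and the change was 1.93 ± 0.36 at 24 h (3.82-fold, limma adjusted p = 0.000731) and 1.63 ± 0.36 at 72 h (limma adjusted p = 0.00252). The accessory subunits Ndufa6 (1.65 ± 0.27 at 24 h, 1.21 ± 0.27 at 72 h) and Ndufa13 (1.51 ± 0.23 and 1.23 ± 0.23) and Ndufb9 (1.2 ± 0.28 and 0.90 ± 0.28) were called higher at both times, the last not at 72 h without 72 h replicate 2 or serum replicate 3 (adjusted p 0.0782 and 0.0779).

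The catalytic part of complex I did not move as one. At 24 h, where 34.2% of all genes were called higher, 6 of its 7 core subunits encoded in the nucleus were (median change 0.87). So were all 30 accessory subunits other than Ndufa4l2 (median 1.14, range 0.49 to 1.93). The exception was Ndufs1, the largest core subunit, which carries iron-sulfur clusters and is named here because its value was seen. It was at 4.94, 4.91 and 4.78 in serum, 5.08, 4.93 and 4.78 at 24 h and 4.89, 4.71 and 4.76 at 72 h. Its groups overlapped at every time, with a log2 change of 0.06 ± 0.11 at 24 h (limma adjusted p = 0.668). With the libraries centred on the cytosolic ribosomal proteins, Ndufs1 was called lower at 24 h (-1.0, limma adjusted p = 0.00664).

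Among the 4 Ndufaf genes, which help to build complex I and are not part of it, only Ndufaf3 was called higher at 24 h (0.94 ± 0.27, limma adjusted p = 0.0106), and none was called at 72 h. Over all genes 34.2% were called higher at 24 h and 52.2% in either direction at 72 h. The 24 h share of 25% thus lay near that of all genes. Ndufaf1 and Ndufaf2 had changes of 0.19 and 0.32 at 24 h and groups that overlapped, and were called higher without 24 h replicate 3 (0.35 and 0.57, limma adjusted p = 0.044 and 0.00951). With ribosomal centring both were called lower at 24 h (-0.87 and -0.74, limma adjusted p = 0.00429 and 0.0035), as was Ndufaf4 (-1.0, limma adjusted p = 0.00367). Ndufaf2 was called higher at 24 h with the trend of the change over gene span (the span trend) removed (0.71, limma adjusted p = 0.0477) and lower at 72 h with ribosomal centring (-0.51, limma adjusted p = 0.0421). Ndufaf4, at 0.06 and -0.31 with the deposited scaling, was called lower at 72 h under both (-0.39 and -0.68, limma adjusted p = 0.0147 and 0.0482). Whether the Ndufaf genes changed less than the subunits was not tested.

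Complex II, succinate dehydrogenase, is also an enzyme of the citrate cycle. Its iron-sulfur subunit Sdhb was at 4.61, 4.66 and 4.39 in serum, 6.05, 6.03 and 5.47 at 24 h and 5.47, 5.81 and 5.09 at 72 h. These groups did not overlap with serum, and the changes of 1.30 ± 0.20 and 0.90 ± 0.20 were both called (limma adjusted p = 0.000218 and 0.00281). The membrane anchors Sdhc and Sdhd were called higher at 24 h only (1.10 ± 0.24 and 1.18 ± 0.28). Sdha, the flavoprotein that oxidises succinate, was at 5.30, 5.32 and 5.52 in serum, 5.48, 5.51 and 5.53 at 24 h and 5.70, 5.53 and 5.52 at 72 h, and was called at neither time (0.13 ± 0.10 at 24 h, limma adjusted p = 0.269), but was called lower at 24 h with ribosomal centring (-0.93, limma adjusted p = 0.0205) and higher at 72 h with the span trend removed (0.23, limma adjusted p = 0.0464).

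In complex III, which passes electrons from ubiquinol to cytochrome c, all 8 genes were called higher at 24 h (median change 1.04) and 2 at 72 h (median 0.58), against 34.2% and 25.7% of all genes, so that the 72 h share lay near that of all genes. Uqcr10, a small accessory subunit, was at 5.86, 5.96 and 5.80 in serum and 8.21, 7.79 and 6.70 at 24 h, with no overlap, a change of 1.70 ± 0.36 (3.24-fold) and a limma adjusted p of 0.00196. At 72 h it was at 6.95, 7.80 and 6.49, still above serum (1.21 ± 0.36, limma adjusted p = 0.0157, and 0.0644 without 72 h replicate 2). Uqcrb, which helps to bind ubiquinone, changed by 0.95 ± 0.22 and 0.93 ± 0.22. The accessory subunits Uqcrq (1.34 ± 0.40, limma adjusted p = 0.0119) and Uqcr11 (1.11 ± 0.36, limma adjusted p = 0.0197) were called at 24 h, neither of them without 24 h replicate 1 (adjusted p 0.0526 and 0.0845) and Uqcr11 also not without 24 h replicate 2 or serum replicate 3 (0.0735 and 0.0558). Uqcrc1, a core protein of the complex and its highest gene in serum (mean 6.37), had a change of 0.76 ± 0.22 at 24 h (limma adjusted p = 0.0122, and 0.054 without 24 h replicate 2).

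Complex IV, cytochrome c oxidase, had the highest median change of the 5 complexes at 24 h and at 72 h, with 13 of 13 genes called higher at 24 h (1.33) and 8 at 72 h (0.80), against 34.2% and 25.7% of all genes, Cox6a2 left out for the same reason. Cox4i1, the ubiquitous form of subunit 4, was its highest gene in serum. It was at 7.96, 7.94 and 7.42 in serum, 9.66, 9.44 and 8.22 at 24 h and 8.39, 9.10 and 7.91 at 72 h. The 24 h libraries lay above serum (1.33 ± 0.38, limma adjusted p = 0.00932), and the 72 h libraries overlapped with it (0.69 ± 0.38, limma adjusted p = 0.143). Cox7b, the ubiquitous form of subunit 7b, had a change of 1.51 ± 0.40 at 24 h (limma adjusted p = 0.00673) and of 0.71 ± 0.40 at 72 h (limma adjusted p = 0.16). The ubiquitous forms Cox6a1 (1.19 ± 0.21 at 24 h, 1.18 ± 0.21 at 72 h) and Cox8a (1.28 ± 0.22 and 0.95 ± 0.22) were called at both times. Cox7a2l, which takes part in joining complexes III and IV into supercomplexes, was called with 1.69 ± 0.31 at 24 h and 0.80 ± 0.31 after 72 h (limma adjusted p = 0.000705 and 0.0482). The 72 h call of Cox7a2l was lost without any 1 of serum replicates 1 to 3 or of 72 h replicates 1 and 2 (adjusted p 0.0811 to 0.186).

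The largest changes among the 86 tested members belonged to Cox7a1, Cox6b2, Ndufa4l2 and Cox6a2. They are among 8 genes grouped here by hand as tissue-restricted isoforms, although Ndufa4l2 is a relative of Ndufa4 and not the form of 1 tissue. The other 4 of this group stayed too low to be tested. Ndufa4l2 and Cox6a2 passed the filter only through libraries in 2i, so they had to differ from serum to be tested at all, and their differences from serum are a description with no p-value. Cox7a1 (chr7:30184171-30186028, plus strand, GRCm38), the form of subunit 7a typical of heart and skeletal muscle, was at 2.65, 2.25 and 2.34 in serum, 3.01, 2.81 and 3.01 at 6 h, 5.59, 5.26 and 4.27 at 24 h and 5.29, 5.90 and 5.20 at 72 h. All 2i libraries lay above serum, and the change was 2.63 ± 0.29 at 24 h (6.18-fold, limma adjusted p = 2.24e-05) and 3.05 ± 0.29 at 72 h (8.28-fold, limma adjusted p = 6.41e-06). Its ubiquitous partner Cox7a2 was at 5.77, 6.06 and 5.57 in serum, 8.07, 7.43 and 6.35 at 24 h and 6.48, 7.21 and 6.10 at 72 h. Within a library, Cox7a1 thus lay below Cox7a2 by a median log2 difference of -3.23 in serum (range -3.81 to -3.12), -2.17 at 24 h (-2.48 to -2.08) and -1.19 at 72 h (-1.31 to -0.90). These 3 ranges did not overlap, although the levels of both genes differed between libraries.

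Cox6b2 (chr7:4751794-4753094, minus strand) went on from its 6 h value to 6.22, 6.00 and 5.60 at 24 h and 5.24, 5.74 and 5.12 at 72 h. All lay above the serum values of 3.09 to 3.55, with changes of 2.60 ± 0.19 (6.06-fold, limma adjusted p = 1.37e-06) and 2.03 ± 0.19 (4.07-fold, limma adjusted p = 6.61e-06). The partner Cox6b1, the ubiquitous form, had changes of 0.96 ± 0.25 at 24 h and 0.79 ± 0.25 after 72 h (limma adjusted p = 0.00585 and 0.0198, the second 0.0811 without 72 h replicate 2 and 0.0742 without serum replicate 3). The within-library difference between Cox6b2 and Cox6b1 was -4.23 to -3.55 in serum, -3.19 to -3.02 at 6 h, -2.49 to -2.15 at 24 h and -2.81 to -2.58 at 72 h, so no 2 conditions overlapped.

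Ndufa4l2 (chr10:127514939-127517152, plus strand), a relative of Ndufa4 known for its induction in hypoxia, was at -0.59, -0.58 and -0.06 in serum, 1.78, 2.04 and 2.07 at 24 h and 2.75, 2.80 and 2.84 at 72 h. The 3 conditions did not overlap, and the differences from serum were 2.38 ± 0.15 at 24 h and 3.21 ± 0.15 at 72 h. Within a library, it lay below Ndufa4 by -7.82 to -6.90 in serum and -7.81 to -5.31 at 24 h, ranges that overlapped, and by -5.58 to -4.15 at 72 h, above every serum library. The spans of 30 of the 90 genes overlap that of another gene in RefSeq, and the span of Ndufa4l2 overlaps that of Shmt2, that of Cox6a2 that of Itgad and that of Atp5j that of Gabpa. The sources used here do not say that reads were counted by strand. Shmt2 was called higher by 0.70 and 0.81 at these times, and its part in the value of Ndufa4l2 was not tested. Ndufa4 itself, now usually counted with complex IV, was at 7.18, 7.24 and 6.84 in serum and 9.59, 8.57 and 7.38 at 24 h (1.43 ± 0.47, limma adjusted p = 0.0202). That call was lost without 24 h replicate 1, 24 h replicate 2 or serum replicate 3 (adjusted p 0.081, 0.0545 and 0.066).

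Cox6a2 (chr7:128205436-128206366, minus strand), the heart and skeletal muscle form of subunit 6a, was listed in all 3 serum libraries at the value given to a gene without reads (-3.78, -3.51 and -4.06), so no fold is given. It was at 1.04, 0.55 and 0.31 at 24 h and at -0.34, -0.02 and -1.34 at 72 h. All these values lay above serum, but the level stayed low beside the 8.21, 8.20 and 7.55 of Cox6a1 at 24 h. Of the isoforms that were not tested, Cox8b was at the value of no reads in all 12 libraries, Cox4i2 lay between -2.03 and -1.57 in serum and between -0.48 and 0.51 at 24 h, and Cox7b2 and Cox8c stayed between -3.53 and 0.12 throughout.

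Markers of striated muscle were looked at beside the isoforms typical of that tissue. Of 7 (Myh6, Myh7, Actc1, Tnnt2, Myod1, Myog and Ckm), only Myh6 passed the filter, and it did so only through serum and 6 h libraries. Its differences from serum are therefore a description with no p-value (log2 change -2.08 at 24 h and -1.92 at 72 h). Myh6 was at 0.75, 0.58 and 0.98 in serum and below 0 in all 24 h and 72 h libraries. The other 6 lay below a log2 value of 0 in all 12 libraries, and of these Tnnt2 was at -3.53, -3.26 and -2.22 in serum, -4.53, -4.44 and -2.76 at 24 h and -0.30, -0.34 and -0.47 at 72 h, where it lay above serum. Outside the name rule, the testis form of cytochrome c, Cyct, was called higher by 2.04 at 24 h (limma adjusted p = 0.000103) and 1.93 at 72 h (0.000161). The changes of the somatic form Cycs were 0.47 and 0.35 (limma adjusted p = 0.0479 and 0.138).

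**Figure D2:**
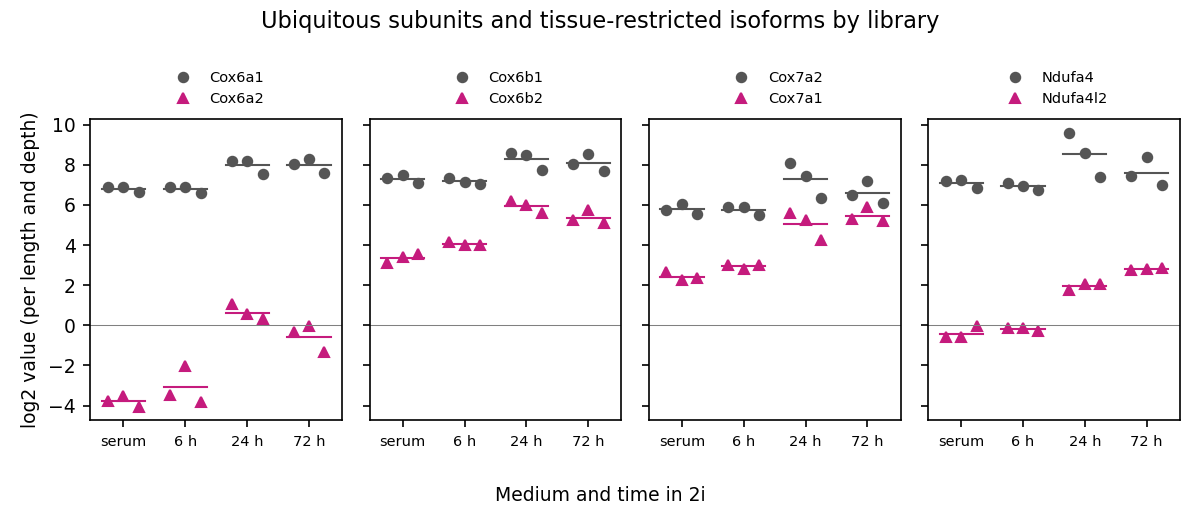
Deposited log2 values of 4 ubiquitous subunits (grey circles) and their relatives grouped here as tissue-restricted isoforms (pink triangles) in the 12 RNA-seq libraries, with horizontal lines at the mean of 3 libraries. Cox7a1 lay between 2.25 and 2.65 in serum and between 5.20 and 5.90 at 72 h, and Cox6a2 stayed far below Cox6a1 at every time.

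Complex V, the ATP synthase, had 13 of 15 genes called higher at 24 h (median change 1.01) and 3 at 72 h (0.41), Atp5s and Atp5sl left out because they lie outside the synthase. Over all genes 34.2% and 25.7% were called higher, so the 72 h share did not exceed that of all genes. The catalytic F1 head of the complex was uneven. Atp5a1, the alpha subunit and after Atp5b the highest gene of the complex in serum, was at 7.88, 7.88 and 7.80 in serum, 8.17, 8.19 and 7.71 at 24 h and 7.88, 7.94 and 7.63 at 72 h. The groups overlapped at both times (0.17 ± 0.15 at 24 h, limma adjusted p = 0.343). The 24 h call of Atp5a1 depended on the processing, as it was higher without 24 h replicate 3 (0.33, limma adjusted p = 0.041) and lower after quantile normalisation (-0.53, limma adjusted p = 0.00128), with the trend of the change over expression level removed (-0.37, 0.00489) and with ribosomal centring (-0.89, 0.0024). After quantile normalisation it was also called lower at 72 h (-0.29, limma adjusted p = 0.035). Atp5b, the catalytic beta subunit, was at 8.10, 8.07 and 7.90 in serum and 8.85, 8.84 and 8.16 at 24 h (0.59 ± 0.20, limma adjusted p = 0.0244), a call lost without 24 h replicate 1 or 2 or serum replicate 2 or 3 (adjusted p 0.0502 to 0.0904), with only the 6 libraries compared (0.0646), with the span trend removed (0.28, 0.0739) and with the level trend removed (0.00, 0.982). The 24 h value of Atp5b was -0.17 after quantile normalisation, and with ribosomal centring it was called lower (-0.47, limma adjusted p = 0.0138). The gamma subunit Atp5c1, the rotating shaft, had a change of 1.19 ± 0.27 at 24 h (limma adjusted p = 0.00292) and of 0.78 ± 0.27 at 72 h (limma adjusted p = 0.0317, and 0.0503 to 0.121 without any 1 of the serum replicates or of 72 h replicates 1 and 2). The small subunits of the central stalk, delta (Atp5d) and epsilon (Atp5e), were called at 24 h with 0.85 ± 0.20 and 1.44 ± 0.55 (limma adjusted p = 0.00333 and 0.0377). Atp5e was at 3.44, 3.45 and 3.05 in serum, 5.65, 5.20 and 3.42 at 24 h and 3.00, 4.38 and 2.45 at 72 h, so its libraries overlapped with serum at both times, and its 24 h call was lost without any 1 of 24 h replicates 1 and 2 or of the serum replicates (adjusted p 0.0661 to 0.152). At 72 h Atp5d was called with 0.56 ± 0.20 (limma adjusted p = 0.0348), a call lost without any 1 of the serum replicates or of 72 h replicates 1 and 2 (adjusted p 0.0673 to 0.139).

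Of the 10 genes of the stalk and the membrane part Fo, 9 were called higher at 24 h (median change 1.02), against 34.2% of all genes. Atp5o, which ties the head to the outer stalk, was called at 24 h (1.01 ± 0.23, limma adjusted p = 0.00292) and at 72 h (0.68 ± 0.23, limma adjusted p = 0.0286), the latter not without serum replicate 1 or 3 or 72 h replicate 1 or 2 (adjusted p 0.0551 to 0.115). Subunit c, the proton-carrying ring, is made from 3 genes that code for the same mature protein. Atp5g2 (6.43, 6.52 and 6.16 in serum, 7.77, 7.81 and 7.0 at 24 h) was the highest of them, did not overlap with serum and was called (1.16 ± 0.25, limma adjusted p = 0.00192). Atp5g3 was called with 0.78 ± 0.26 (limma adjusted p = 0.0236, and 0.0525 to 0.0975 without 24 h replicate 1 or 2 or serum replicate 1 or 3), and with the span trend removed was 0.33 and not called (0.0743). Atp5g1, the lowest (3.77, 4.05 and 3.79 in serum, 4.73, 4.61 and 3.60 at 24 h), overlapped with serum and was not called (0.44 ± 0.31, limma adjusted p = 0.231, and 0.0146 with a change of 0.80 without 24 h replicate 3), but with ribosomal centring it was called lower (-0.62, limma adjusted p = 0.00602). Atp5l, subunit g of Fo, was at 5.65, 5.75 and 5.53 in serum, 8.00, 7.34 and 6.05 at 24 h and 5.61, 6.67 and 5.18 at 72 h. It was above serum at 24 h (1.49 ± 0.44, limma adjusted p = 0.0124, and 0.0533 without 24 h replicate 1) and overlapped with serum at 72 h (0.18 ± 0.44, limma adjusted p = 0.761). Atp5s, now counted as a mitochondrial factor outside the synthase itself, was at 1.26, 1.35 and 1.22 in serum, 2.74, 2.61 and 2.72 at 24 h and 1.56, 1.96 and 1.61 at 72 h. Its 3 conditions did not overlap (1.41 ± 0.12 and 0.43 ± 0.12, limma adjusted p = 2.94e-06 and 0.0092).

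**Figure D3:**
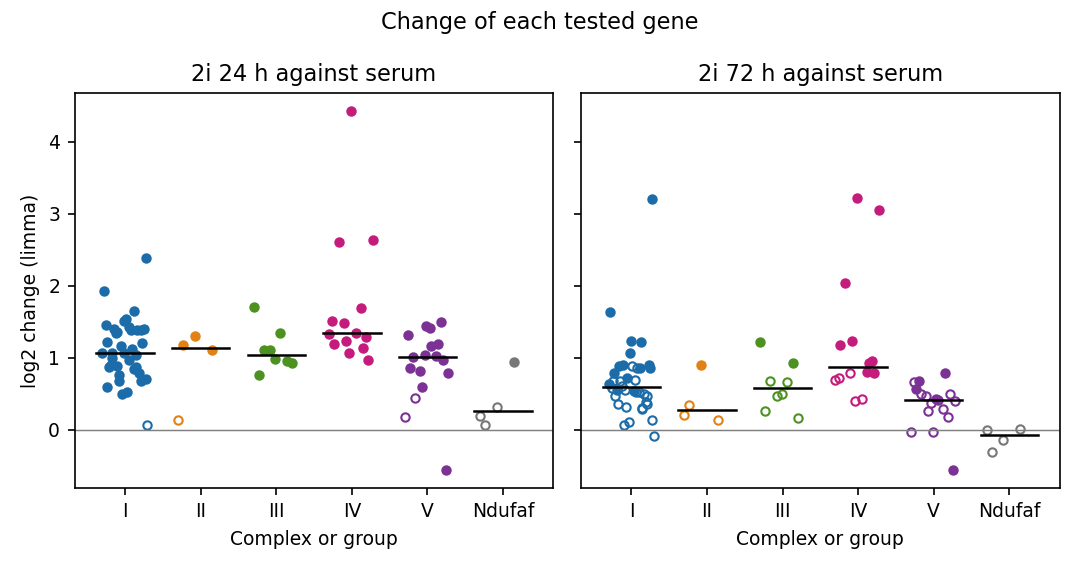
Change from serum (log2, limma) of each of the 85 tested genes of complexes I to V and of the Ndufaf factors at 24 h (left) and 72 h (right), with filled points for genes called and black lines at the median of each group. Nearly all genes lay above 0 at 24 h, the medians were lower at 72 h, and the point below 0 that is filled in both panels is Atp5sl.

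In the direct comparison of 72 h with 24 h, 12 of the 86 genes were called lower and 1 (Ndufa4l2, above the filter in both groups of this comparison) higher, against 15.7% lower and 15.8% higher (31.6% in either direction) over all genes tested, and the median change was -0.46 (-0.07 over all genes). How this compares with other genes rested on single libraries. The number called was 66 without 24 h replicate 3 (54.4% of all genes), 36 without 72 h replicate 2 (39.8%) and 3 without any 1 of 24 h replicates 1 and 2 or 72 h replicates 1 and 3 (19.7% to 23.2%).

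The nuclear chain was set beside other gene families because a change of 1 family can be shared. At 24 h, 80 of 85 cytosolic ribosomal protein genes were called higher (median change 1.18), 42 of 76 mitochondrial ribosomal protein genes (0.52) and 6 of 37 proteasome subunits (0.38), against 34.2% of all genes. Within each library the median of the 77 genes of complexes I to V without the tissue-restricted isoforms lay below that of the cytosolic ribosomal proteins by -2.68 to -2.63 (log2) in serum, -2.68 to -2.66 at 6 h and -2.71 to -2.65 at 24 h. Serum and 24 h therefore overlapped, and the distance between the families at 24 h differed from serum by no more than the spread of the libraries. At 72 h the difference was -2.52 to -2.41, above every serum library. Above the mitochondrial ribosomal proteins they lay by 0.88 to 1.03 in serum, 1.45 to 1.60 at 24 h and 1.35 to 1.56 at 72 h, with no overlap between serum and either time. With the libraries centred on the cytosolic ribosomal proteins, 24 members were called higher and 4 lower at 72 h (28.0% of all genes called in either direction), with a median of 0.17 (all genes -0.38).

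The members are short genes, with a median span of 7333 bp against 20179.5 bp over all genes tested, and 33 of 86 lay in the shortest of 5 equal classes of all genes tested by span (up to 6013 bp). Genes of that class had a median change of 0.53 at 24 h, and 48.1% of them were called higher. With the trend of the change over span removed, 72 members were called higher and 1 lower at 24 h (median 0.78), where 31.6% of all genes were called higher, and 40 higher and 2 lower at 72 h (median 0.49), where 27.5% were.

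The partners of the nuclear subunits were read against the 34.2% of all genes called higher and 29.1% lower at 24 h, and 25.7% and 26.5% at 72 h. Of the 13 mRNAs encoded in mitochondrial DNA, 5 were called higher at 24 h (mt-Co2, mt-Co3, mt-Atp6, mt-Atp8 and mt-Nd3) and mt-Nd6 lower, a share of 38.5% higher that lies near that of all genes. mt-Co3, a core subunit of complex IV, changed by 1.70 at 24 h (limma adjusted p = 0.00298), whereas mt-Co1, its catalytic subunit, changed by 0.45 (limma adjusted p = 0.287). Of 25 tested assembly factors outside the name rule, 13 were called higher and 1 (Acad9, a complex I factor) lower at 24 h, and 4 higher and 5 lower at 72 h (16.0% and 20.0%, below all genes). Surf1, a complex IV factor, had a change of 0.88 at 24 h (limma adjusted p = 0.000231) and of -0.17 at 72 h, and Cox10, which makes the heme A precursor of complex IV, by -0.26 and -0.64 (limma adjusted p = 0.068 and 0.000772). Of 18 genes of the citrate cycle and pyruvate dehydrogenase, 10 were called higher and 1 (Pdha1) lower at 24 h, with Idh2, the mitochondrial NADP-dependent isocitrate dehydrogenase, at 1.47 (limma adjusted p = 5.44e-06).

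Of 13 tested regulators of these genes, 8 were called lower and 3 higher at 24 h (29.1% and 34.2% of all genes), and 8 lower and 1 higher at 72 h (26.5% and 25.7%). The list was made by hand and was not tested as a group. Its tested genes had a median span of 28030 bp, against 20179.5 bp over all genes tested. In the longest of the 5 span classes, 49.4% of all genes were called lower at 24 h. The part of span in these changes was not tested. Hcfc1, a coregulator that works with GABP and PGC-1 family proteins, fell by 2.04 at 24 h (limma adjusted p = 1e-04) and Pprc1, a coactivator of the PGC-1 family, by 1.44 (limma adjusted p = 0.000258). Gabpa, the DNA-binding part of GABP, fell by 0.83 (limma adjusted p = 6.25e-05). Nrf1 changed by -0.17 (limma adjusted p = 0.172) and Tfam, the packaging and transcription factor of mitochondrial DNA, by -0.01 (limma adjusted p = 0.942). Esrra, an estrogen-related receptor, was called higher, with 1.37 at 24 h and 1.13 after 72 h (limma adjusted p = 0.000353 and 0.00146). Ppargc1a, which encodes PGC-1 alpha, and Ppargc1b did not pass the filter.

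H3K9me2 at the start sites was low before the switch. The measure was the log2 ratio of bound over input reads in the 3 bins of 2 kb around each start, available for 86 of the 90 genes. The neighbouring starts of Cox4i1 and Cox4nb had the same values, and that region is counted once for each gene. Its serum mean was below 0 at 85 of these 86 starts, and also at 17220 of 20701 starts of all genes. The median over the members was -2.77 and -2.87 in the 2 serum libraries, against -1.68 and -1.78 over 20701 starts of all genes, -2.55 and -2.73 at 24 h (all starts -1.67 and -1.69), and -3.52 and -3.37 in LT2i (all starts -2.41 and -2.49). At 24 h, when the chain's RNA was highest, 0 of 86 starts were called higher and 1, that of Ndufs7, lower by limma (0.923% and 0.623% of all starts, and, at an unadjusted p under 0.05, 14 of 86 and 16.3% of all starts, the same share). In LT2i 5 were called higher and 7 lower, against 4.91% and 25% of all starts, and the median change from serum was -0.47 (-0.41 over all starts). In the single bin that holds the start, the median change was -0.03 (-0.12 over all starts). The neighbouring bins were not measured apart, so where the change lay was not tested. The bound values share 1 input per condition and are scaled to a common total, so a loss over the whole genome would not show. The error of that input is common to both ratios of a condition, so the SEs and p-values given for H3K9me2 leave it out.

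The 3 starts with the highest ratio in serum among the isoforms were those of Cox8c (0.43 and 0.40), Cox7b2 (0.00 and -0.36) and Cox4i2 (-0.75 and -0.70), none of which passed the RNA filter. Cox8b, which did not pass it either, had a low ratio in serum (-2.77 and -4.3). Subunits that passed the filter lay near Cox4i2 in serum, such as Ndufs4 (-0.54 and -0.91), Ndufa6 (-0.91 and -0.86) and Cox7c (-0.78 and -0.98), and none reached Cox8c or Cox7b2. Cox4i2 was at -2.15 and -1.04 at 24 h and -2.39 and -2.55 in LT2i, and was called lower in LT2i (-1.75 ± 0.37, limma adjusted p = 0.000403). Cox6a2 was at -0.93 and -1.46 in serum, -1.61 and -1.56 at 24 h and -2.43 and -2.85 in LT2i, the last called lower (-1.44 ± 0.38, limma adjusted p = 0.00331). Cox7b2 went the other way, at 0.84 and 0.68 in LT2i, and was called higher there (0.94 ± 0.21, limma adjusted p = 0.000647). Cox7a1 (-3.20 and -3.39 in serum, -4.17 and -3.34 in LT2i) and Cox6b2 (-3.54 and -2.90, -4.00 and -3.41) were not called. Cox6b2 had the opposite sign at 24 h, at -1.69 and -1.75, and was not called there (1.5 ± 0.46, limma adjusted p = 0.084). Atp5a1, whose RNA was not called at any time with all libraries and the deposited scaling, was called higher in LT2i (-2.38 and -1.91 in serum, -0.89 and -0.46 in LT2i, limma adjusted p = 0.00165). Depth limits these ratios, since the bound libraries held 3.55 to 17.3 scaled reads at the start of Ndufa4l2 and 64.8 to 113 at that of Cox7b2.

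**Figure D4:**
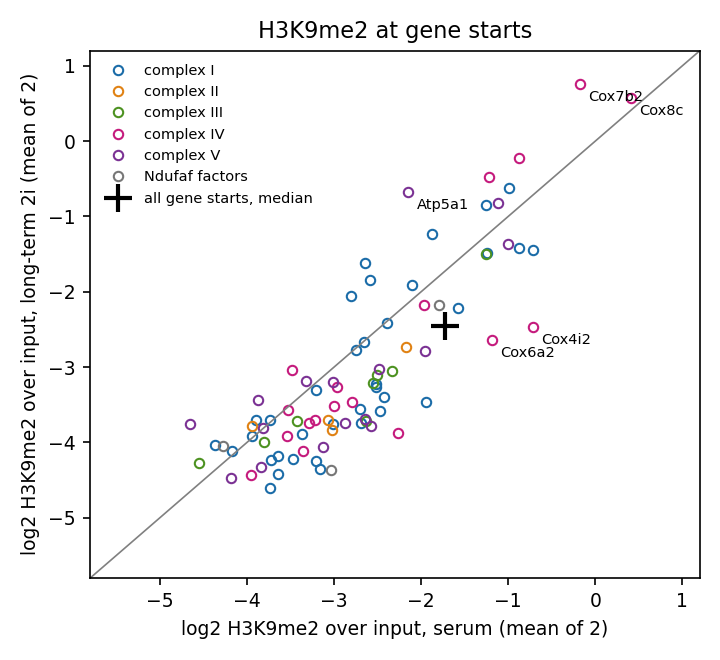
Log2 ratio of H3K9me2 bound over input reads at the start sites of members of complexes I to V and the Ndufaf factors, serum on the x axis and long-term 2i on the y axis, each the mean of 2 libraries, with the median over all gene starts as a cross and the line of equal values in grey. Most members lay to the lower left of the cross, and Cox8c and Cox7b2 lay highest.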

How the data were processed

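RNA-seq values were the log2 values per gene that the authors deposited, corrected for gene length and depth and with one 75th percentile for all libraries and coordinates of GRCm38. For ChIP-seq, the deposited values were log2 read numbers in 2-kb bins after scaling to a common total. Submitters' notes list Trim Galore 0.3.5, TopHat2 2.0.11, Bismark 0.12.3 and Bowtie2 without roles. The sources used here name neither the read counter nor any use of strand.

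Groups came from the sample labels, and the study calls its RNA-seq replicates biological. Same-number libraries deviated together (correlation over 0.1 in all 3 pairs) for 6 h and 24 h against serum (0.105 to 0.542). Unlike-number pairs of replicates 1 and 2 were over 0.1 too (0.114 to 0.341), and those with replicate 3 were below 0. A link by number was thus seen in the data for replicate 3 only, and the labels state none. How reads shared with pseudogene copies were counted is not given. Group means of 12306 genes with a log2 value of at least 0 in 3 or more libraries were fitted in limma 3.58.1 (R 4.3.3) with an intensity trend, and p-values were adjusted over all of them. For ChIP-seq the bins were made linear, 3 bins at each gene start were summed, and log2 bound over input was fitted in limma over 20701 starts. Both fits were tested on simulated data. RRBS and ChIP-BS files use NCBIM37 and were not used here.

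The members and gene lists were chosen with earlier results of these data known. Members were named for the largest changes and highest levels per complex, as isoform families, or as genes against the common direction. Those marked as chosen after their values were seen are apart from this, and some others, among them Ndufaf4, also followed no such rule. No rule set which genes outside the members were named, such as regulators, assembly factors and citrate cycle genes.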

Additional observations from a re-analysis of the deposited data

Results flagged for a closer look

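The changes from serum at 24 h and at 72 h differed, by the limma test of 72 h against 24 h, in 13 of the 86 genes tested (31.6% of all genes were called in this comparison), and these are given as values only. Ndufa4l2 was higher at 72 h than at 24 h by 0.83 on the log2 scale. The others were lower at 72 h. In complex I these were Ndufa5 (-0.82), Ndufa7 (-0.87) and Ndufv1 (-0.56), the subunit that binds NADH, and among its assembly factors Ndufaf3 (-0.93). In complex II both membrane anchors were lower, Sdhc by -0.97 and Sdhd by -0.84, and in complex III the Rieske iron-sulfur protein Uqcrfs1 (-0.75). In complex IV these were Cox6b2 (-0.57) and Cox7a2l (-0.89), and in complex V Atp5g2 (-0.75), Atp5l (-1.31) and Atp5s (-0.98). Sdhc and Atp5s were the only ones of the 12 in which all 72 h libraries lay below all 24 h libraries. The number called rested on single libraries, with 3 to 66 genes called when 1 library was left out (19.7% to 54.4% of all genes).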

How the results depend on the processing

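The number of members called at 24 h was 51 with a log2 change of 1 or more required (27.5% of all genes) and 26 (65.6%) with libraries centred on the cytosolic ribosomal protein genes, an alternative added after the data were seen. At 72 h (31 higher and 1 lower) it was 51 after quantile normalisation (54.2%) and 11 with a change of 1 or more (21.0%). At 6 h it was 5 with only the 6 libraries compared (29.1%) and 0 after that centring (2.19%) or with a change of 1 or more (5.3%). For 72 h against 24 h it was 4 without a filter (16.7%), 2 with only the 6 libraries compared (12.9%) and 1 with a change of 1 or more (9.54%). Leaving out 1 library gave 1 to 2 genes at 6 h (10.0% to 11.7% of all genes), 59 to 83 at 24 h (54.4% to 71.9%), 19 to 43 at 72 h (44.7% to 52.6%) and 3 to 66 for 72 h against 24 h (19.7% to 54.4%). The median H3K9me2 change in LT2i (-0.47) was -0.59 over whole genes, -0.03 in the bin at the start and -0.43 to -0.34 without 1 library.

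With the replicate number as a replicate block, 2 members were called at 6 h and 78 at 24 h, as without it, and 51 at 72 h and 39 for 72 h against 24 h, with 20.9%, 71.0%, 60.9% and 47.1% of all genes called. For the last 2 comparisons the numbers were not taken to pair the libraries, because deviations from the group means did not correlate over 0.1 in every same-number pair (0.051 in 1 serum and 72 h pair, -0.249 in 1 pair of 24 h and 72 h). Over all conditions this correlation was over 0.1 in 15 of 18 pairs, and 7 of 12 libraries correlated best with their own number. With the block, Atp5g2, Cox4i1 and Cox7a2 were also called at 72 h, and no other call against serum changed among the genes named by rule. Single genes were not followed under the block for 72 h against 24 h.

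Among the changes of named genes, these turned sign. After quantile normalisation, Atp5a1 was -0.53 and Atp5b -0.17 at 24 h, and Atp5b -0.08 and Ndufaf1 0.03 at 72 h. With the span trend removed, Atp5a1 was -0.10, Ndufaf1 -0.12 and Ndufaf4 -0.25 at 24 h and Ndufaf3 -0.19 at 72 h. With the level trend removed, also added later, Atp5a1 was -0.37 and Sdha -0.06 at 24 h and Ndufaf1 0.02 at 72 h. With the ribosomal centring, the 24 h values were -0.89 for Atp5a1, -0.47 for Atp5b, -0.21 for Atp5d, -0.62 for Atp5g1, -0.28 for Atp5g3, -0.05 for Atp5o, -0.10 for Cox6b1, -0.87 for Ndufaf1, -0.74 for Ndufaf2, -0.12 for Ndufaf3, -0.93 for Sdha, -0.11 for Uqcrb, -0.30 for Uqcrc1 and -1.0 for Ndufs1. Of these, Atp5a1, Atp5b, Atp5g1, Ndufaf1, Ndufaf2, Sdha and Ndufs1 were called lower, as was Ndufaf4, which turned to -1.0. The 72 h values were then -0.11 for Atp5b, -0.19 for Atp5l, -0.36 for Ndufaf3, -0.17 for Sdha, -0.24 for Sdhc, -0.03 for Sdhd and -0.11 for Uqcrc1. Without 1 library the 72 h changes ranged from -0.10 to 0.06 for Atp5a1, -0.59 to 0.38 for Atp5e, -0.25 to 0.49 for Atp5l, -0.08 to 0.05 for Ndufaf1, -0.29 to 0.26 for Ndufaf3 and -0.08 to 0.33 for Sdhc. These calls were lost besides those named with a left-out library. With the span trend removed these were Atp5b, Atp5e and Atp5g3 at 24 h (adjusted p 0.0739, 0.0598 and 0.0743) and Atp5o at 72 h (0.0701), with the level trend removed Atp5b at 24 h (0.982), and with only the 6 libraries compared Atp5b at 24 h (0.0646). Without a filter these were Atp5e at 24 h (0.0719) and Atp5c1, Atp5d and Cox7a2l at 72 h (0.0542, 0.0575 and 0.0821), the last also with the stricter filter (0.05). With the ribosomal centring these were Atp5sl and Cox6b2 at 6 h, Atp5c1, Atp5e, Atp5g2, Atp5l, Atp5s, Cox4i1, Cox6a1, Cox8a, Ndufa4, Ndufb9, Sdhb, Sdhc, Sdhd, Uqcr11 and Uqcrq at 24 h and Atp5d, Atp5o and Atp5s at 72 h (adjusted p 0.0855 to 0.888). Calls gained at 72 h, beyond those already given, were Atp5g3, Cox7a2 and Cox7b after quantile normalisation (0.0421, 0.0172 and 0.038) and Cox7a2 with the level trend removed (0.0464) or only the 6 libraries compared (0.0369). Why these changed was not tested. RNA-seq read totals are unknown, so the precision of low genes could not be given.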
